A study of Mus musculus with 6 samples.

Results

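Type I interferon stimulated genes were followed in RNA-seq of natural killer (NK) cells from mouse liver. The set was chosen by gene symbol, with earlier results of these data known. For it, 45 symbols of genes that cells switch on in response to type I interferon were looked up in the deposited table. The table held 55414 genes, and all 45 were found. The libraries came from wild-type (WT) mice of a strain that the labels do not give. Of the 6 libraries, 3 came from control mice given PBS and sampled on day 3, and 3 from mice given metformin, an oral antidiabetic drug, at 200 mg per kg for 3 days and sampled on day 3. The sources used here do not describe how the NK cells were isolated or gated. Nor do the labels say whether each library came from its own mouse, and if the libraries are technical repeats, the p-values reflect technical spread alone. All 45 genes passed the low-count filter, which kept 15527 genes.

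Type I interferons (interferon alpha and beta) bind one receptor on nearly every cell, and the kinases JAK1 and TYK2 attached to it are then activated. STAT2 and IRF9 act in a complex, ISGF3, that binds the interferon-stimulated response element in promoters and switches on antiviral genes, among them Stat2, Irf9 and Irf7 themselves, so that the pathway feeds on its own output. In NK cells, type I interferon is known to raise cytotoxicity and to support their survival and activation during viral infection, and stimulated genes are also transcribed at a low level without infection.

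The response element is known by 2 copies of GAAA with 2 bases between them, that is, GAAA, then any 2 bases, then GAAA. Promoter windows of 300 bases, from 250 before to 50 after the annotated start, were taken from RefSeq (GRCm38.p6), which held a window for 33 of the 45 genes. On either strand, overlapping matches included, 18 of these 33 genes (54.5%) had the pair of GAAA copies in a window, against 3.99% of all 27025 genes and 3.44% of all 32851 windows. A longer form with 3 repeats (TTTC, any 2 bases, TTTC, any 2 bases, TTT) was in the windows of 5 of the 33 genes (15.2%) and in 0.326% of all genes and 0.274% of all windows. The stretches of 60 bases below show matches in genes on which the later results turn, though not every match of a window. Each reads 5′ to 3′ on the gene's own strand, with the bases of a match in capitals, as the pair of GAAA copies or, where the match lies on the opposite strand, as a pair of TTTC copies. They were read upstream of Isg15 (chr4:156200856-156200915, minus strand), Ifit1 (chr19:34640770-34640829, plus), Ifit3 (chr19:34583382-34583441, plus), Ifit3b (chr19:34607778-34607837, plus), Rsad2 (chr12:26456538-26456597, minus), Stat2 (chr10:128270251-128270310, plus), Oas1a (chr5:120907526-120907585, minus) and Slfn5 (chr11:82951922-82951981, plus).
Isg15: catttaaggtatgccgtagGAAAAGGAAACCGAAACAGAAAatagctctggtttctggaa
Ifit1: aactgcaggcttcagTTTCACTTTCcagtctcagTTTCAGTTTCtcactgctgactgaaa
Ifit3: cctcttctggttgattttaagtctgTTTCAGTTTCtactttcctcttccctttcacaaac
Ifit3b: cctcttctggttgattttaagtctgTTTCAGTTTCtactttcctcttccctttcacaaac
Rsad2: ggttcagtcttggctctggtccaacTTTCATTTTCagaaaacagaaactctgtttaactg
Stat2: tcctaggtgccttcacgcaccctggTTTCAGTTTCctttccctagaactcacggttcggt
Oas1a: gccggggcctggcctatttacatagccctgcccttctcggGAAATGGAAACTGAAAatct
Slfn5: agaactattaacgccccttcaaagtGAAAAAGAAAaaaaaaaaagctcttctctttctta
Isg15 carried 3 overlapping matches in a row and Ifit1 carried 2 separate ones. Ifit3 and Ifit3b each had 2 matches in the window, of which 1 lies in the stretch shown. Ifit3 and its copy Ifit3b had the same 60 bases upstream of their starts. Apart from that, their read counts are uncertain, since reads from near-identical copies can be split between them by the counting. How alike the transcripts are was not measured here. The same caution applies to Oas1a and Oas1g, Ifit1 and Ifit1bl1, Mx1 and Mx2, and Slfn8. A match describes letters in a window and does not show that the factor binds there.

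The genes lay partly in clusters. The 5 Ifit genes were together on chromosome 19, and Ifi204, Ifi209 and Ifi213 of the PYHIN family on chromosome 1. The 6 Oas genes were all on chromosome 5, but in separate stretches, with the Oasl genes apart from the others. In the table's coordinates, Parp9 and Dtx3l overlapped by 682 bases on opposite strands, so reads in that stretch cannot be assigned to one of them unless the counting used strand, which is not stated.

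Each library held 22152167 to 30161214 estimated reads. NK cell markers summed to between 20719 and 24164 CPM (reads of a gene scaled to the library's total reads, adjusted by TMM factors) in every library, with Ncr1 at 1314 to 1591 CPM. Gzma and Il2rb held the largest parts of that sum. Not every marker was even between groups. Eomes was at 312, 342 and 329 CPM in PBS and at 216, 212 and 208 CPM in metformin. Tyrobp was at 1091, 1083 and 1086 CPM in PBS and at 1246, 1165 and 1440 CPM in metformin. Both were named after their values were seen. Across the 15527 genes, metformin library 3 stood apart. Its level relative to the mean of the 6 libraries fell with gene length (Spearman rho of -0.422 across genes), while the other 5 libraries lay between -0.11 and 0.327, with PBS libraries 2 and 3 at 0.29 and 0.327. It was the lowest of the 6 for 29.1% of genes and the highest for 29.3%. Results for the set and for part of its genes are therefore also given below without it or with the length trend removed. Values of single genes outside the set, and medians by role or list, are given with all 6 libraries and no length correction.

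Levels between genes were compared per length, in TPM (transcript abundance scaled for gene length and library total) averaged over the 6 libraries. Ifi47, an interferon-inducible GTPase, was the most abundant at 431 TPM. Next came Ifi35 at 150 TPM, Irf7, the transcription factor that amplifies interferon production, at 146 TPM, Ifi209 at 136 TPM, Zbp1, a sensor of Z-form nucleic acids that can trigger cell death, at 133 TPM, and Bst2 at 129 TPM. At the other end stood Mx2 at 0.729 TPM, Oas2 at 0.776 TPM, Oas1g at 1.30 TPM and Ifi44 at 2.38 TPM. Mx2 had as few as 4 reads in a library. The genes of the set thus covered a range from barely detected to abundant in both groups, and 5 of 45 averaged under 5 CPM.

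The main pattern among the 45 genes was a shared difference between libraries of one group. In both groups the library numbered 2 held the highest level of 33 of the 45 genes, where 10.9% of all 15527 genes did so. Library 1 was highest in both groups for 0 of 45 (9.67% of all genes) and library 3 for 0 of 45 (12.6% of all genes). Taken alone, PBS library 2 was the highest of its group for 37 of 45 genes (31.9% of all genes) and metformin library 2 for 41 of 45 (30.5% of all genes). The count was 36 of 45 on TPM (14.0% of all genes) and 35 of 45 with the length trend removed (10.5% of all genes). These genes moved together, so the counts are not 45 separate observations, and they rest on a single library in each group. The shares of all genes beside them are per gene and do not allow for this. Nor do the labels say that a library number is shared between groups.

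**Figure D1:**
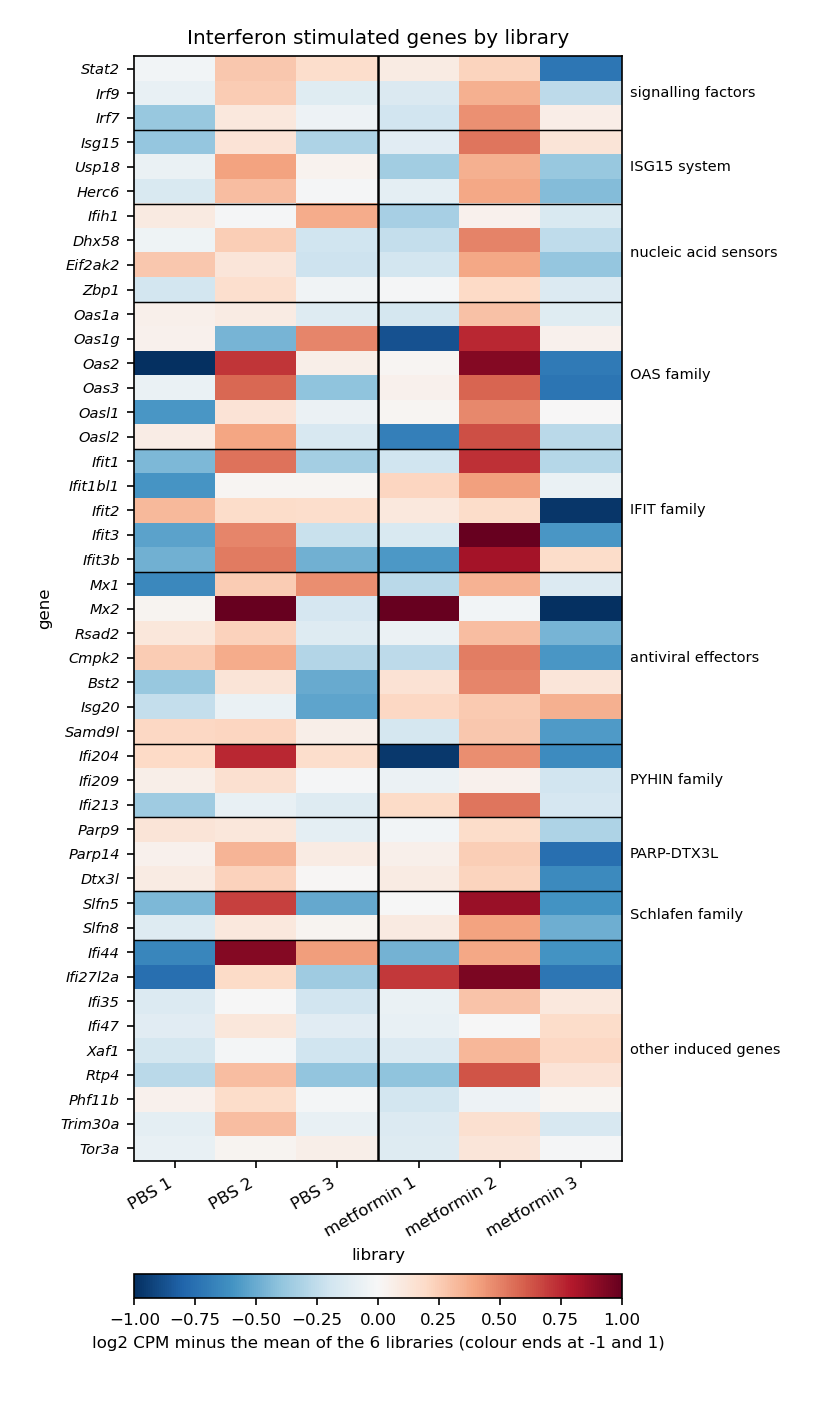
Heat map of the 45 genes (rows) in the 6 libraries (columns), as log2 CPM minus the gene's mean over the 6 libraries. The columns of PBS 2 and metformin 2 hold the high values for most rows. Metformin 3 holds the lowest value for 20 of the 45 genes, as it does for 29.1% of all genes tested.

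The average of log2 CPM over the 45 genes was 4.78, 5.21 and 4.86 in PBS libraries 1, 2 and 3. It was 4.85, 5.35 and 4.64 in metformin libraries 1, 2 and 3. The library numbered 2 was thus the highest of each group, and the group means of 4.95 ± 0.23 (SD, n = 3) for PBS and 4.95 ± 0.37 (SD, n = 3) for metformin overlapped fully. Over all genes tested the same average stayed between 3.67 and 3.76 in the 6 libraries. Summed over the set, the level was 2854, 3397 and 2871 CPM in PBS and 2856, 3600 and 2632 CPM in metformin.

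Per gene, library 2 lay above the mean of the other two libraries for 42 of 45 genes in PBS (50.9% of all genes) and for 43 of 45 in metformin (51.7% of all genes). The median difference was 0.32 on the log2 scale in PBS, or 1.25-fold, and 0.56 in metformin, or 1.47-fold, while the medians over all genes were 0.005 and 0.016. The size of the difference in PBS tracked that in metformin across the 45 genes with a Pearson r of 0.45, against 0.076 across all genes. These are correlations across genes measured in the same libraries, and are given as a description.

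**Figure D2:**
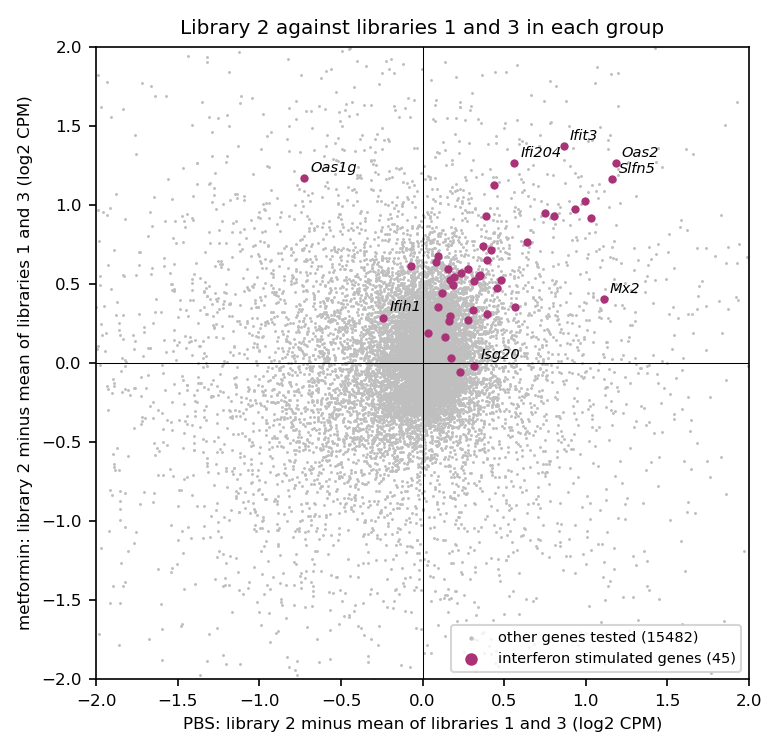
Scatter plot of the log2 CPM of library 2 minus the mean of libraries 1 and 3, in PBS (horizontal) and in metformin (vertical), with the 45 interferon stimulated genes over the other 15482 genes tested. Most of the 45 lie in the upper right, with a median of 0.32 in PBS and 0.56 in metformin, while the other genes centre near 0, and 511 of them fall outside the axes.

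Deviations from the group means moved together. The median Pearson r over all pairs of the 45 genes was 0.66, and 92.7% of pairs had an r above 0, against a median of -0.003 and 49.8% of pairs among all genes tested. These values rest on 6 libraries, with 4 degrees of freedom once the group means are removed, and all pairs share those libraries and their depth. Without metformin library 2 the median was 0.44, the lowest of the values with 1 library left out, and without metformin library 1 it was 0.80, the highest. The median SD of log2 CPM within groups was 0.334 in the set and 0.243 over all genes, at a median level of 39.2 CPM against 18.7 CPM. The median biological coefficient of variation that edgeR fitted per gene, which is moderated towards other genes of similar level, was close, at 20.5% against 19.8%.

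The signalling factors showed the pattern in all 3 genes. Irf7 stood at 124, 174 and 156 CPM in PBS libraries 1 to 3 and at 141, 221 and 169 CPM in metformin libraries 1 to 3. Irf9, the DNA-binding subunit of ISGF3, stood at 131, 164 and 126 CPM in PBS and at 124, 176 and 114 CPM in metformin. In both genes library 2 was the highest of its group, and the groups overlapped. Stat2, the subunit that carries the activation domain of ISGF3, was at 70.9, 87.3 and 82.0 CPM in PBS and at 76.5, 84.6 and 43.9 CPM in metformin. Its PBS values were close together and its lowest value was that of metformin library 3.

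The ISG15 system attaches the ubiquitin-like protein ISG15 to other proteins and removes it again. Isg15 itself was at 12.4, 17.9 and 13.2 CPM in PBS and at 15.1, 23.7 and 17.9 CPM in metformin. Usp18, the protease that removes ISG15 and also damps the interferon receptor, was at 28.4, 39.3 and 30.4 CPM in PBS and at 23.4, 38.1 and 22.9 CPM in metformin. Both genes, and the ligase Herc6, were highest in the library numbered 2 of each group.

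Among the nucleic acid sensors, 2 of 4 genes had library 2 highest in both groups, Dhx58 and Zbp1. Ifih1, which encodes the RNA sensor MDA5, was at 21.6, 20.1 and 26.2 CPM in PBS, where library 2 was the lowest, and at 16.1, 20.9 and 18.2 CPM in metformin. Eif2ak2, the kinase PKR that halts translation on binding double-stranded RNA, was at 30.2, 27.3 and 21.6 CPM in PBS and at 22, 32.8 and 19.1 CPM in metformin.

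By the median over a role, library 2 stood furthest above the others in the antiviral OAS, IFIT and Schlafen families, although not in every gene of them, as Slfn8 with 137, 161 and 153 CPM in PBS and 159, 198 and 107 CPM in metformin shows. The Ifit genes encode proteins that bind viral RNA. Ifit1 was at 18.0, 35.8 and 19.4 CPM in PBS and at 21.4, 40.9 and 20.1 CPM in metformin, so that library 2 lay 1.91-fold above the mean of the other two in PBS and 1.97-fold in metformin. Ifit3 was at 12.8, 26.2 and 16 CPM in PBS and at 16.8, 37.5 and 12.4 CPM in metformin, or 1.82-fold and 2.59-fold. Ifit2 did not share it in PBS, at 47.1, 42.7 and 42.7 CPM, and in metformin stood at 40.5, 42.8 and 19.2 CPM.

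Slfn5, a Schlafen gene, was at 9.09, 20.0 and 8.70 CPM in PBS and at 12.4, 22.7 and 8.19 CPM in metformin, a 2.24-fold difference for library 2 in both groups. Several genes of the OAS family, though not all, encode enzymes that make the signal for RNA decay by RNase L. Library 2 was highest in both groups for 5 of the 6 Oas genes, all but the thinly counted Oas1g. Oas3 was at 35.9, 55.8 and 28.4 CPM in PBS and at 38.6, 56.2 and 22.6 CPM in metformin. Oasl2 was at 10.1, 12.6 and 8.57 CPM in PBS and at 5.91, 15.0 and 7.93 CPM in metformin, and Oas2 at 0.847, 2.96 and 1.85 CPM and at 1.79, 3.42 and 1.05 CPM.

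**Figure D3:**
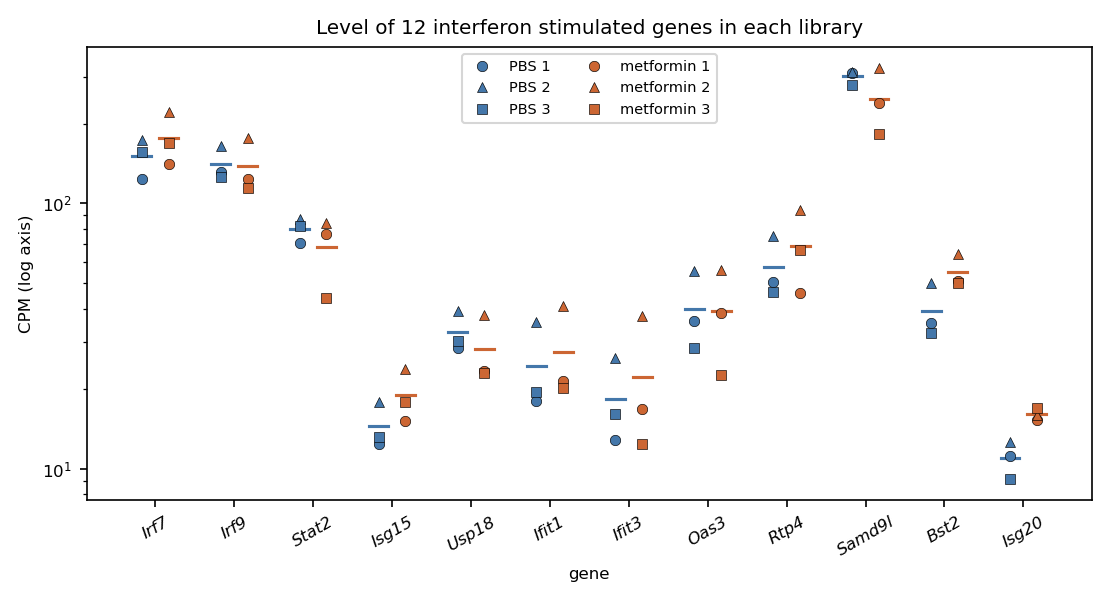
Level of 12 of the genes in each library, in CPM on a log axis, with PBS in blue and metformin in orange, the library number as the marker (circle 1, triangle 2, square 3) and a line at each group mean. The library numbered 2 is the top point of its group in both groups for all the genes shown other than Isg20, for which metformin 3, at 16.9 CPM, is the top point.

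The other antiviral effectors were mixed, with library 2 highest in both groups for 4 of 7. Rsad2, which encodes viperin, was at 7.03, 7.64 and 5.93 CPM in PBS and at 6.22, 8.05 and 4.69 CPM in metformin. Mx1, a GTPase that blocks virus replication and is listed in the table as a polymorphic pseudogene in mouse, was at 12.7, 23.7 and 27.5 CPM in PBS and at 16.5, 25.3 and 18.1 CPM in metformin. Mx2, listed likewise, had the widest spread of the set, from 0.175 CPM in metformin library 3 to 2.14 CPM in metformin library 1.

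The steadiest genes were Tor3a, Ifi209, Phf11b and Ifi47. Tor3a, an interferon-responsive ATPase, was at 53.5, 57.4 and 58.6 CPM in PBS and at 51.4, 61.3 and 56.0 CPM in metformin. Ifi47 was at 432, 506 and 431 CPM in PBS and at 444, 466 and 530 CPM in metformin, so that its highest library was metformin 3. Phf11b was at 53.3, 58.8 and 51.0 CPM in PBS and at 45.4, 50 and 52.4 CPM in metformin. Ifi209 was at 270, 289 and 257 CPM in PBS and at 250, 267 and 227 CPM in metformin, and alone among these 4 had library 2 highest in both groups.

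The match to the response element did not separate the genes that shared the pattern from those that did not. Library 2 was highest in both groups for 13 of the 18 genes with the pair of GAAA copies in a window (72.2%), for 12 of the 15 without it (80.0%) and for 8 of the 12 with no window (66.7%). Among the other genes tested the share was 69 of 418 with the match (16.5%) and 1202 of 10353 without it (11.6%).

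Metformin was compared with PBS by edgeR's quasi-likelihood test over all 15527 genes, with Benjamini-Hochberg adjustment. At an adjusted p under 0.05, 0 of the 45 genes differed, and the share of all genes was 0.0%. At an unadjusted p under 0.05, 2 of 45 were higher with metformin, Bst2 and Isg20 (5.29% of all genes), and 0 were lower (5.08% of all genes). DESeq2 also called 0 of 45 (1.93% of all genes), and limma-voom 0 (0.0% of all genes), and each had 2 of 45 higher at an unadjusted p under 0.05, again Bst2 and Isg20 (5.26% of all genes by DESeq2 and 5.34% by limma-voom). Of the 45 fold changes 22 lay above 0 and 23 below, with a median log2 fold change of -0.008 against 0.005 over all genes. They ranged from -0.65 for Ifi204 to 0.73 for Ifi27l2a.

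**Figure D4:**
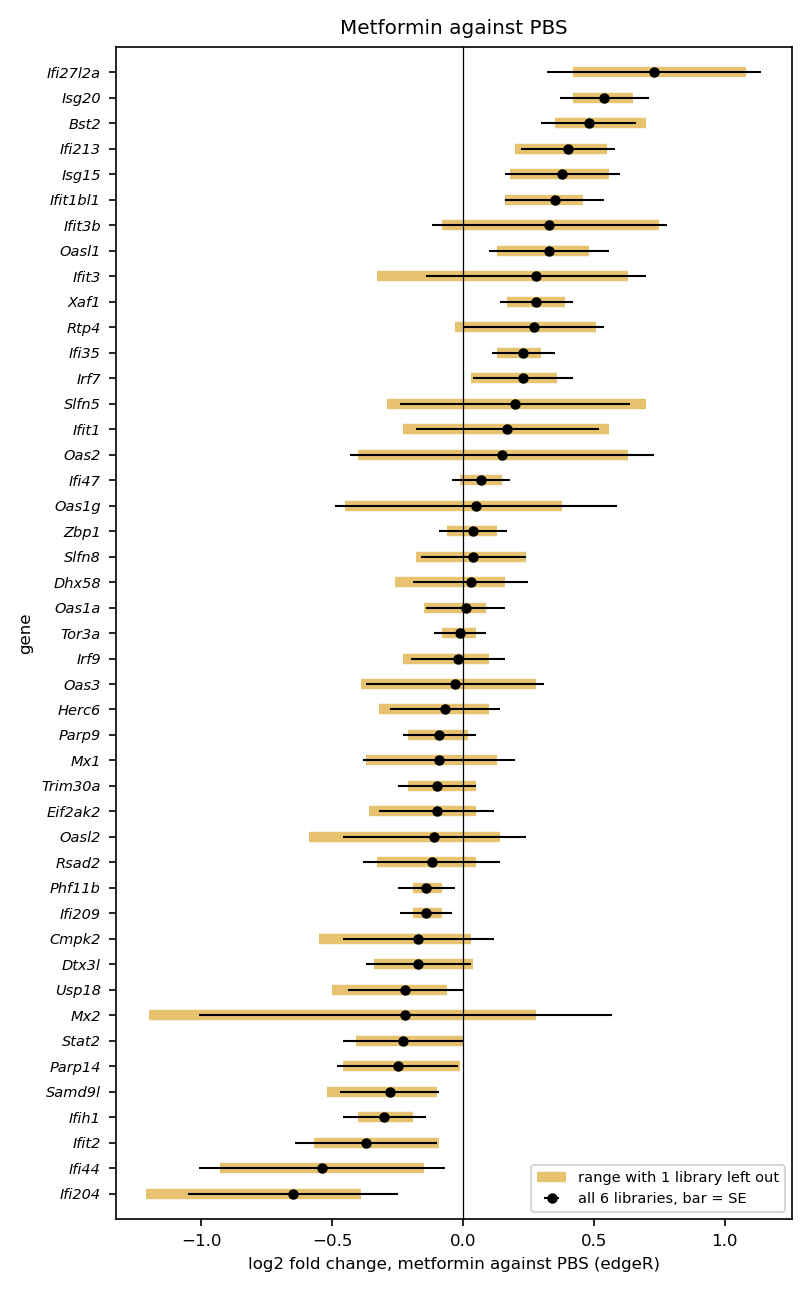
Log2 fold change of metformin against PBS for the 45 genes with its standard error, and the range of the estimate when each of the 6 libraries is left out. The estimates run from -0.65 to 0.73, and the error bars of 26 genes reach past 0.

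Bst2 and Isg20 were the genes closest to the threshold. Isg20, an exonuclease that degrades viral RNA, was at 11.2, 12.6 and 9.13 CPM in PBS and at 15.2, 15.9 and 16.9 CPM in metformin, means of 11.0 ± 1.75 and 16 ± 0.827 CPM (SD, n = 3). Its 2 groups did not overlap, the only such case with metformin above among the 45 (9.49% of all genes), and with metformin below there were 0 (9.63% of all genes). The log2 fold change was 0.54 (SE 0.17), with an edgeR adjusted p of 0.385. Bst2, which encodes tetherin, the membrane protein that holds budding virus at the cell surface, was at 35.5, 50.3 and 32.5 CPM in PBS and at 51.0, 64.5 and 50 CPM in metformin. Metformin library 3, at 50 CPM, lay just below PBS library 2, so the groups overlapped. Its log2 fold change was 0.48 (SE 0.18), with an edgeR adjusted p of 0.455. Both are short transcripts, and with the length trend removed the log2 fold changes were 0.36 for Isg20 and 0.23 for Bst2.

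With all 6 libraries and no length correction, the largest fold change upward was that of Ifi27l2a, a short interferon-induced gene, at 9.28, 18.0 and 12.2 CPM in PBS and at 25.7, 30.2 and 9.47 CPM in metformin. Metformin libraries 1 and 2 were above every PBS library and metformin library 3 was near the lowest, and the log2 fold change of 0.73 (SE 0.41) had an edgeR adjusted p of 0.563. It was 0.29 with the length trend removed, below Ifi213 and Isg20, and ran from 0.42 without metformin library 2 to 1.08 without metformin library 3. Ifi213 was at 31.8, 38.5 and 37.0 CPM in PBS and at 46.2, 58.9 and 36.2 CPM in metformin, with the same 2 libraries above all of PBS and a log2 fold change of 0.40 (SE 0.18), or 0.42 with the length trend removed and 0.20 without metformin library 2. For Isg15 the log2 fold change was 0.38 (SE 0.22), 0.09 with the length trend removed and 0.18 without metformin library 2. Ifi35 had 0.23 (SE 0.12), 0.10 with the length trend removed and 0.13 without metformin library 2. Xaf1, which promotes apoptosis, had 0.28 (SE 0.14), and 0.17 without metformin library 2.

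Downward, Ifi204 of the DNA-sensing PYHIN family was at 6, 8.83 and 5.90 CPM in PBS and at 2.63, 7.22 and 3.33 CPM in metformin, with a log2 fold change of -0.65 (SE 0.40) and an edgeR adjusted p of 0.592. It ran from -1.21 without metformin library 2 to -0.39 without metformin library 1. Samd9l, a translation-restricting antiviral factor, was at 311, 312 and 280 CPM in PBS and at 238, 325 and 182 CPM in metformin, with a log2 fold change of -0.28 (SE 0.19), -0.52 without metformin library 2 and -0.10 without metformin library 3. In both genes metformin libraries 1 and 3 were below every PBS library and metformin library 2 was not. Ifih1 had a log2 fold change of -0.30 (SE 0.16), or -0.16 with the length trend removed and -0.19 without PBS library 3. That of Ifit2 was -0.37 (SE 0.27), and -0.57 without metformin library 2 and -0.09 without metformin library 3. Parp14, an ADP-ribosyltransferase at 102, 126 and 105 CPM in PBS and 103, 118 and 59.0 CPM in metformin, had -0.25 (SE 0.23), and -0.46 and -0.01 without those same libraries.

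By role, with all 6 libraries and no length correction, the median log2 fold change was -0.02 for the signalling factors and -0.07 for the ISG15 system. It was -0.03 for the sensors and 0.03 for the OAS family. It was 0.28 for the IFIT family, -0.12 for the other antiviral effectors, -0.14 for the PYHIN genes, -0.17 for the PARP-DTX3L group, 0.12 for the Schlafen genes and 0.07 for the rest. No group of roles had a member past the adjusted threshold.

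The direction of the set turned on single libraries. Without metformin library 2, 34 of the 45 log2 fold changes lay below 0 and the median was -0.234. At an unadjusted p under 0.05, Usp18, Samd9l and Ifi204 were then lower (6.22% of all genes) and Isg20 was higher (5.49% of all genes). Without metformin library 3, 32 of 45 lay above 0 and the median was 0.09, and 5 genes were higher at an unadjusted p under 0.05 (4.9% of all genes), Ifit1bl1, Bst2, Isg20, Ifi213 and Ifi27l2a, against 0 lower (6.51%). Leaving out PBS library 2 gave a median of 0.095 with 28 of 45 above 0, and Isg15, Bst2 and Isg20 higher at that level (3.19% of all genes) and 0 lower (3.29%). Without both libraries numbered 2, a choice made after seeing the data, 26 of 45 lay below 0, with Bst2 and Isg20 higher (2.82% of all genes) and Samd9l and Ifi204 lower (3.29% of all genes) at an unadjusted p under 0.05. The other 3 fits with 1 library left out gave 1 gene higher and 0 lower without PBS library 1 (4.52% and 2.9% of all genes), where 29 of 45 lay below 0 and the median was -0.057, 0 and 0 without PBS library 3 (4.08% and 4.11%), and 4 higher and 0 lower without metformin library 1 (4.13% and 4.92%). In each of these 7 fits 0 of the 45 genes had an edgeR adjusted p under 0.05, where 0.00623% of all genes did without metformin library 3 and 0.0% in the others. For the counts above or below 0 and the medians in these fits, the values over all genes are not given here. A shift shared by all genes was thus not told apart from one of the set.

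Length moved with these values. After the values were seen, the 45 genes were divided at their median length of 3240 bases. Metformin library 3 was the lowest of the 6 libraries for 16 of the 22 longer genes and for 4 of the 23 others. Over all genes of any length it was the lowest for 29.1%, and its level fell with length there too (Spearman rho of -0.422). The median log2 fold change of the 45 was -0.10 in the longer genes and 0.23 in the others. With the length trend removed those medians were -0.04 and 0.17, and 1 of 45 was higher, Ifi213 (4.72% of all genes), and 1 lower, Phf11b (5.47%), at an unadjusted p under 0.05. Under upper-quartile scaling 5 of 45 were higher at that level (6.25% of all genes), Bst2, Isg20, Ifi213, Ifi35 and Xaf1, and on log2 TPM 2 of 45 were higher, Isg20 and Ifi213 (3.21% of all genes), and 1 of 45 was lower, again Phf11b (7.72% of all genes). Metformin library 3 was still the lowest of the 6 for 20 of the 45 genes after that correction (26.0% of all genes). The pattern of the libraries numbered 2 was present in both length groups, for 16 of the 22 longer genes and 17 of the 23 others.

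The rest of the pathway was described from lists of other genes, and the genes named from them were chosen after their values were seen. Of 18 type I interferon genes, 16 were at 0 reads in every library and none reached the filter. Among 12 genes of the receptor and JAK-STAT chain, 1 was higher and 3 were lower at an unadjusted p under 0.05 (5.29% and 5.08% of all genes), the median log2 fold change was -0.11, and 0 passed after adjustment. Socs1, an inhibitor of JAK kinases, was at 60.4, 60.5 and 59.9 CPM in PBS and at 75.6, 84.4 and 90.0 CPM in metformin, with a log2 fold change of 0.47 (SE 0.10) and an edgeR adjusted p of 0.246. Its groups did not overlap, with metformin above (9.49% of all genes), and the libraries numbered 2 were not raised. The 3 lower genes were the receptor chain Ifnar1 (-0.30, SE 0.11), the kinase Jak1 (-0.32, SE 0.12) and the transcription factor Irf8 (-0.39, SE 0.11).

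Among 14 tested sensors and adaptors upstream of interferon, 0 were higher and 2 were lower at an unadjusted p under 0.05, Mavs and Traf3, with a median of -0.13 (5.29% and 5.08% of all genes). A further 67 tested interferon stimulated genes held 3 higher at that level, Slfn1, Ly6e and Ly6a, and 4 lower, Gbp3, Pnpt1, Ms4a4b and N4bp1, with a median of 0.03, against 5.29% and 5.08% of all genes. By edgeR, 0 genes of these lists passed after adjustment, whereas DESeq2 called Socs1, Ly6e and Gbp3 (1.93% of all genes). Ly6e was at 1019, 1115 and 995 CPM in PBS and at 1532, 1436 and 1760 CPM in metformin, and Gbp3, an interferon-induced GTPase, at 75.0, 63.2 and 67.9 CPM in PBS and 45.0, 43.8 and 35.0 CPM in metformin. Both had non-overlapping groups, as had 9.49% of all genes with metformin above and 9.63% with metformin below. Each had an edgeR adjusted p of 0.196, and neither had library 2 highest in both groups. In the list of 67, library 2 was highest in both groups for 28 (41.8%), and in the receptor chain for 6 of 12, against 10.9% of all genes.

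Markers of other cells that a liver NK preparation could hold were measured in the same libraries. In bulk RNA, fewer cells of a type and less RNA per cell cannot be told apart. Of 10 markers of plasmacytoid dendritic cells, which are strong interferon producers, 0 had library 2 highest in both groups, and their sum was 333, 364 and 396 CPM in PBS and 374, 340 and 350 CPM in metformin. Most of that sum was Atp1b1, at 228, 227 and 251 CPM in PBS and 193, 190 and 224 CPM in metformin. Siglech varied far more, at 1.91, 7.76 and 12.2 CPM in PBS and 14.5, 8.26 and 3.72 CPM in metformin. Spib and Ly6d also varied several-fold, whereas Cox6a2 stayed between 1.55 and 1.84 CPM. The count with library 2 highest in both groups was also 0 of 10 tested markers for B cells, for T cells and for hepatocytes. It was 0 of 8 for Kupffer cells and for neutrophils, and 0 of 7 for endothelium. For conventional dendritic cells it was 1 of 10, for monocytes 1 of 9 and for NK cells 3 of 11. Over all genes the share was 10.9%, and on lists this short a count of 0 or 1 lies near it. The sums of T cell and of Kupffer cell markers were higher in each metformin library than in any PBS library. That of T cells was 817, 945 and 916 CPM in PBS and 1443, 1287 and 1607 CPM in metformin, and that of Kupffer cells was 7.4, 24.7 and 19.1 CPM in PBS and 33.4, 28.7 and 102 CPM in metformin. For both the 2-sided exact permutation p was 0.1, the smallest that 3 against 3 libraries allow, or 0.4 adjusted over 10 lists. Without metformin library 3 the log2 ratio of the Kupffer sums was 0.86, against 1.69 with all libraries. The T cell sum was mainly that of Cd3g, Trbc1 and Trbc2. The means of these genes were 303, 292 and 180 CPM in PBS and 553, 412 and 279 CPM in metformin. Those of Trac and Cd3d were 21.4 and 16.5 CPM in PBS and 48.5 and 36.4 CPM in metformin. Whether such reads came from T cells or from the NK cells was not tested. Of the 10 T cell markers, Cd3e was at 6.92, 16.6 and 21.3 CPM in PBS and 62.2, 40.6 and 24.3 CPM in metformin, and Cd28 had a log2 fold change of -0.07 (SE 0.11). Their part in the values of Bst2 and Isg20 was not tested.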

How the data were processed

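RNA-seq of 6 libraries was analysed, 3 per group. The authors deposited estimated counts and TPM values per gene, per the file headers, with gene lengths. The submitters' processing notes name DRAGEN, without a version, and the builds GRCm39 and mm10, without their roles. Of 52081 genes shared with a GRCm38 annotation 2.87% had the same position, so the table's coordinates were not joined to it. Filters and strand use are not given in the sources used here. All value columns were matched to samples (0 left over).

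Estimated counts were rounded and filtered with edgeR's filterByExpr, scaled with TMM and tested with glmQLFTest (edgeR 4.0.16, R 4.3.3), with Benjamini-Hochberg adjustment over 15527 genes and a threshold of 0.05. The common biological coefficient of variation was 27.3%. Log2 CPM used a prior count of 2. DESeq2 1.42.0, limma 3.58.1 (voom, and log2 of TPM plus 1), other scalings and filters, a lowess correction for length (span 0.3), a replicate block and leaving out each library were alternatives. Scripts were tested on simulated data. Marker sums were compared with scipy 1.17.1.

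The members and lists were chosen with earlier results of these data known. Genes were named by rule: a list of central members, the 5 with the smallest p in each direction, the 4 with the largest and the 4 with the smallest spread within groups, and the 6 other genes that varied most like the set. Herc6, Dhx58, Oas1a, Oas1g, Oas3, Ifit1bl1, Ifit3b, Parp9, Dtx3l, Slfn8, Ifi44 and Rtp4 fall outside this rule and were named after their values were seen.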

Additional observations from a re-analysis of the deposited data

How the results depend on the processing

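With each of the 6 libraries left out in turn, the members higher with metformin at an unadjusted p under 0.05 numbered 0 to 5 (2 with all libraries) and those lower 0 to 3 (0 with all libraries), the genes of the pathway lists at that level 7 to 17 (13 with all libraries), and the median pairwise r was 0.44 to 0.80. The members higher numbered 5 under upper-quartile scaling and 1 with the length trend removed. The members lower numbered 1 on log2 TPM, 1 with the length trend removed and 2 without both libraries numbered 2, where the pathway lists held 7 genes at that level. DESeq2 called 3 genes of the pathway lists after adjustment and edgeR 0. The longer motif was in 5 promoters and the shorter in 18. The cause of these differences was not tested.

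Libraries with the same number were not treated as pairs, because the labels do not say that a number is shared between groups and the correlation of their deviations from the group means over all genes was 0.171, 0.076 and 0.172, not above 0.1 in every pair. PBS 1 correlated best with metformin 1 and PBS 3 with metformin 3, while PBS 2 correlated equally with metformin 1 and metformin 2. With the replicate number as a block, 0 members passed after adjustment (3 of all genes against 0 without the block), 2 were higher, Bst2 and Isg20, and 1 was lower, Ifi204, at an unadjusted p under 0.05 (4.87% and 5.02% of all genes).

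Of the 31 members named by the rule, 16 kept the sign of the fold change in every setting. On log2 TPM, Zbp1 was at -0.04, Slfn5 at -0.14 and Ifi47 at -0.05. Tor3a was at 0.01 both when scaled by library size alone and with the filter at 5 CPM, at 0.04 under upper-quartile scaling and at 0.05 with the length trend removed. Irf9 was at 0.02 with upper-quartile scaling and 0.04 with the length trend removed, where Ifi47 was at -0.02. Mx2 was at 0.38 without both libraries numbered 2. With 1 library left out the log2 fold change ran from -0.06 to 0.13 for Zbp1, -0.40 to 0.63 for Oas2, -0.23 to 0.56 for Ifit1, -0.33 to 0.63 for Ifit3, -0.29 to 0.70 for Slfn5 and -0.01 to 0.15 for Ifi47. It ran from -0.23 to 0.10 for Irf9, -0.59 to 0.14 for Oasl2, -1.20 to 0.28 for Mx2, -0.37 to 0.13 for Mx1, -0.21 to 0.05 for Trim30a and -0.08 to 0.05 for Tor3a. It ran from -0.41 to 0.00 for Stat2, -0.36 to 0.05 for Eif2ak2 and -0.33 to 0.05 for Rsad2.

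Taken as a mean of log2(CPM + 1), the log2 ratio of metformin to PBS was 0.16 for plasmacytoid dendritic cell markers (-0.04 as a sum), -0.03 for conventional dendritic cell markers (0.04) and 0.01 for endothelial markers (-0.18). With 1 library left out the ratio of the sums ran from -0.10 to 0.02 for plasmacytoid and -0.06 to 0.14 for conventional dendritic cell markers, -0.23 to 0.04 for monocyte, -0.22 to 0.67 for B cell and -0.02 to 0.70 for hepatocyte markers. Counting error limits Mx2, Oas2 and Oas1g most.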

Other observations

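Outside the 45 genes, the deviations from the group means that followed the mean deviation of the set most closely over the 6 libraries were those of Rmi1 (r of 0.999), Smarca5 (0.998), Poglut3 (0.992), Strbp (0.991), Efl1 (0.989) and Farp1 (0.985), out of 10409 genes with a mean of at least 5 CPM. None of these is in the pathway lists. An r above 0.9 was found for 227 of the 10409 genes (2.18%), for 8 of the 67 other interferon stimulated genes and for 13 of the 45 genes themselves, each of which is part of the mean. These correlations rest on 6 libraries that all the genes share and are descriptions.

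Tnfsf10, chosen after its values were seen, encodes TRAIL, a death ligand that liver NK cells use and that type I interferon is known to induce. It was at 100, 115 and 99.6 CPM in PBS and at 130, 163 and 128 CPM in metformin. The groups thus did not overlap, with metformin above (9.49% of all genes), and library 2 was the highest of each (10.9% of all genes). The log2 fold change was 0.42 (SE 0.12), with an edgeR adjusted p of 0.360. Its deviations followed the mean of the set with an r of 0.973.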
